A study of Mus musculus with 3 samples.

Results

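Of the 59626 accessible regions called on chromosomes 1 to 19 in islet cells of wild type (WT) mice, 10645 lay at the promoter of a protein-coding gene and were also overlapped by a region called after loss of Taf4, both in the 1 week and in the 5 week list. These shared promoter peaks were chosen by the peak calls themselves. A WT peak was taken when it overlapped, by at least 1 bp, a window from 1000 bp upstream to 100 bp downstream of an annotated start and a peak in each Taf4 KO list. That each was called in all 3 lists is therefore the selection and not a result. Its width, its fold over local background and its place in each list are described below.

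ATAC-seq, in which a transposase inserts sequencing adapters into accessible DNA, was performed on dissociated cells of islets of Langerhans to ask how chromatin accessibility changes when beta cells lose Taf4, which is part of TFIID. There was 1 library of each kind, labelled wild type, Taf4 KO at 1 week and Taf4 KO at 5 weeks, all from mice of the strain labelled C5LBl6. By the study's methods, adult mice of both genotypes carried an Ins1::Cre-ERT2 transgene, an insulin promoter driving a tamoxifen-activated recombinase, and received tamoxifen. The Taf4 KO mice also carried floxed Taf4 alleles, whereas the controls had Taf4+/+ alleles, and the times count from inactivation. The recombinase acts in beta cells, so the other islet cells in these libraries kept Taf4, and a signal from fewer beta cells cannot be told apart from less signal per beta cell. No group was replicated, so the variation from mouse to mouse is unknown and no test between lists was made.

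A promoter is the stretch around the start of a gene where general transcription factors and RNA polymerase II assemble, and an active one is usually kept free of nucleosomes. Many promoters of widely used genes lie in CpG islands, GC-rich stretches that keep their CpG dinucleotides. TFIID, a general transcription factor built from TBP and the TAF proteins, binds the core promoter and nucleates that assembly, and Taf4 and its paralog Taf4b are among its subunits.

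The sequences below show what such promoters look like. The first 6 are the strongest WT members carrying, upstream of their start, the letters of a factor's site, and the last 2 are beta cell genes picked by name. Each sequence is the 180 bases upstream of the annotated start on the gene's strand, read from the mm9 assembly. Neither beta cell gene carries any of the 6 sets of letters in this stretch, which does not show whether they occur outside it. Capitals mark the letters named for each gene, which may stand in reverse complement. They were CGCATGCG for Nrf1 in Cherp (chr8:74999133-74999312, minus strand), AAGATGGCG for YY1 and YY2 in Fnbp4 (chr2:90585347-90585526, plus strand), CCGGAAG for ETS factors in Ppme1 (chr7:107520407-107520586, minus strand), TGACGTCA for CRE-binding factors in Snrnp40 (chr4:130037199-130037378, plus strand), ACTACAA for ZNF143 in M6pr (chr6:122258558-122258737, plus strand) and TATAAA in Golga5 (chr12:103707940-103708119, plus strand). The beta cell sequences were those of Ins1 (chr19:52338633-52338812, plus strand) and Pdx1 (chr5:148081355-148081534, plus strand).
Cherp: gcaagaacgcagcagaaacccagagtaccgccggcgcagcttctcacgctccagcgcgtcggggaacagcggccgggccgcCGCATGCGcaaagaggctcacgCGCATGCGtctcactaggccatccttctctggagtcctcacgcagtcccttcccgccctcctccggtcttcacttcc
Fnbp4: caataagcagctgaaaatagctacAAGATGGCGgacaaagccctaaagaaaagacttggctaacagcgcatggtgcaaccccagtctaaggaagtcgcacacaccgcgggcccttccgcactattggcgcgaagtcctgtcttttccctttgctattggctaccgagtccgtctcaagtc
Ppme1: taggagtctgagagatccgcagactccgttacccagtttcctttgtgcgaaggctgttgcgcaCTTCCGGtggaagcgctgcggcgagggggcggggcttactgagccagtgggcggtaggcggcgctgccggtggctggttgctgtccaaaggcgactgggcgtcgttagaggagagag
Snrnp40: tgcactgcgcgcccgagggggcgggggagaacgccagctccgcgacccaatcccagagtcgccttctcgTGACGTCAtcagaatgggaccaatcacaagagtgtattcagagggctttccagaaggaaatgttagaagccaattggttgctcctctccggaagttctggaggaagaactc
M6pr: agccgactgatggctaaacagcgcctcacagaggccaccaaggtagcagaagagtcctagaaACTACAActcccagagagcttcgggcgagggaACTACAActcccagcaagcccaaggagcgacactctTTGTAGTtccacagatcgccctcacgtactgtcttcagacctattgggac
Golga5: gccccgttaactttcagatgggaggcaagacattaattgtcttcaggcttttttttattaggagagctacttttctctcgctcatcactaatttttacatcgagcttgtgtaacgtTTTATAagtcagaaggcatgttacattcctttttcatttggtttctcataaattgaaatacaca
Ins1: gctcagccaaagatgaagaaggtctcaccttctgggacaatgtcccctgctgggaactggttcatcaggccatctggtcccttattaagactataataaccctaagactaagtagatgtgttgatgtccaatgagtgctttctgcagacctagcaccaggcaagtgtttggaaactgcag
Pdx1: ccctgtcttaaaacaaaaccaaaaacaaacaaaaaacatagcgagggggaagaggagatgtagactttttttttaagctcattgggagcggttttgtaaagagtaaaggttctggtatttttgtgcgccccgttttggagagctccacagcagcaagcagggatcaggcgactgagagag

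The first 4 were rich in CG pairs, with 19 in Cherp, 16 in Ppme1, 11 in Snrnp40 and 10 in Fnbp4, against 5 in Pdx1 and 0 in Ins1. M6pr, with 7 CG pairs, carried the ZNF143 letters 3 times, and Cherp carried the Nrf1 letters 2 times. Golga5, with 4 CG pairs, was at 35.6% GC, Pdx1 at 44.4% and Ins1 at 47.2%, below the 66.1% of Cherp. A match of letters is a description of the sequence and not a measured binding site.

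Of 12510 WT promoter peaks on these chromosomes, the 10645 shared ones made up 85.1% (Wilson 95% interval 84.5 to 85.7, counting of peaks only), against 53.5% of the other WT peaks. Another 1564 WT promoter peaks were overlapped by a peak at 5 weeks only, 16 by one at 1 week only, and 285 by none. The shared promoter peaks were 29.7% of the 35835 WT peaks overlapped in both Taf4 KO lists. The remaining 25190 shared peaks, called distal here because they met no promoter window, serve as the comparison. In all, 11090 of 21410 autosomal protein-coding genes (51.8%) had a shared promoter peak. Most of the peaks, 9537, met the window of 1 gene, whereas 1089 met 2 and 19 met 3, as did the peak named for Cdnf, a neurotrophic factor gene. At the edge of the rule, the shortest overlaps with a Taf4 KO peak among members were 10 bp at Gm14221, 15 bp at Speg and 20 bp at Amotl1, and 10 members shared under 50 bp with a matched peak. The WT peak of Apbb2 was left out although a Taf4 KO peak ended directly beside it, and that of Cald1 lay 27 bp from one. Smtnl2 reached into its window by 1 bp, and Pcsk5 and Ripply2 by 2 bp, whereas the peaks of Lin7a, Tmc7 and Lama5 ended at the window's border and were not counted.

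The 3 lists were not equally deep. They held 59626, 138129 and 150230 peaks on chromosomes 1 to 19, and the local background recovered from the caller's values was 1.77 times the WT value at 1 week and 2.57 times at 5 weeks. A deeper library gives a higher -log10 q at the same enrichment and adds weak peaks to a list. The members were therefore compared mainly by their rank, which is the percentile of a peak's -log10 q (or of its matched Taf4 KO peak's) among the 35835 shared peaks of the same list. A rank of 100 is the strongest. Fold and -log10 q are the caller's averages over a peak, not read counts.

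Taf4 itself (Taf4a in the annotation) had a shared promoter peak. From WT through 1 week to 5 weeks its -log10 q read 8.53, 1.32 and 8.02. Its rank was 62.9, 0.465 and 34.1. The call places a peak at the promoter in each library, at 1 week near that list's lowest -log10 q of 1.01. It does not measure the deletion and checks nothing about the genotype labels. Taf4b, the paralog, stayed in the top of every list, at ranks of 95.3, 96.2 and 91.3.

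Shared promoter peaks were wide and strong in WT, and lost more of that lead at 1 week than at 5 weeks. Their median rank was 76.7 in WT, 56.9 after 1 week and 67.2 after 5 weeks, whereas distal shared peaks stood at 39.3, 47.0 and 42.1. The 25th to 75th percentiles of the members ran from 56.0 to 90.1 in WT, from 31.0 to 79.6 at 1 week and from 43.9 to 85.3 at 5 weeks, so the spread among promoters was widest at 1 week. Promoters stood above distal peaks in each list, by a margin that was smallest at 1 week.

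**Figure D1:**
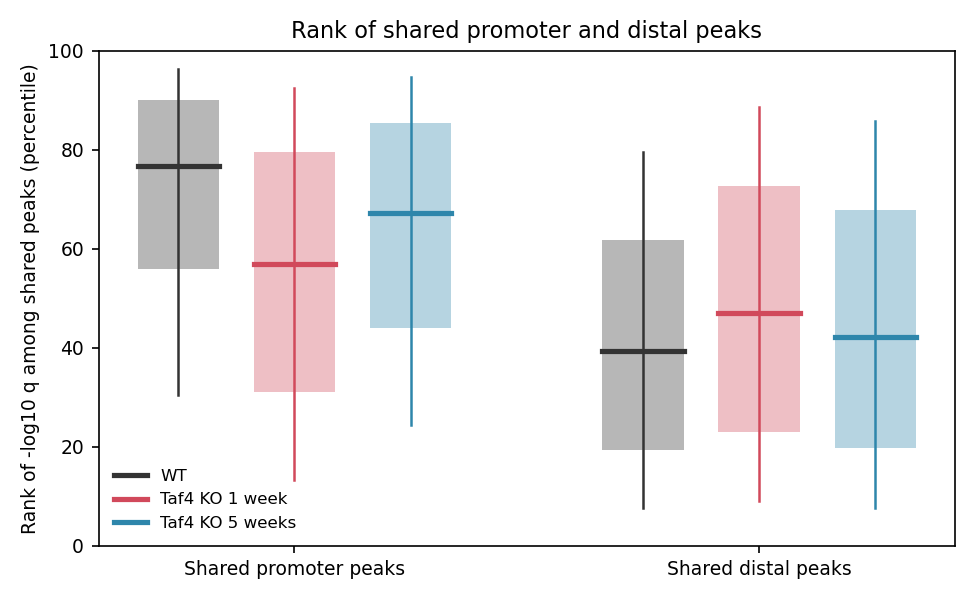
Rank of -log10 q among the 35835 shared peaks (percentile, vertical axis) for shared promoter and shared distal peaks in each list. Thick lines are medians, boxes the 25th to 75th percentiles and thin lines the 10th to 90th; the promoter median is 76.7 in WT, 56.9 after 1 week and 67.2 after 5 weeks.

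Relative to WT, 70.4% of the members were lower in rank at 1 week and 68.8% at 5 weeks, against 39.9% and 44.6% of distal peaks. The median member moved by -11.2 points at 1 week and by -5.73 points at 5 weeks, and the median distal peak by 5.95 and 2.37 points. A fall of at least 20 points was seen at 1 week in 4032 members, or 37.9% (37.0 to 38.8), against 22.2% of all shared peaks and 15.6% of distal ones. A rise of that size was seen in 824 members, or 7.74%, against 23.1% of all shared peaks. At 5 weeks 2042 members, or 19.2% (18.4 to 19.9), fell by 20 points against 15.1% of all shared peaks, and 487, or 4.57%, rose by as much, also against 15.1%. There were 1466 members that fell by 20 points at both times and 258 that rose, but both comparisons use the same WT list. The matching shares of all shared peaks were not computed. Because members and distal peaks divide a fixed scale, a lower rank of the former goes with a higher rank of the latter.

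Members began at higher ranks, from which there is more room to fall, so members and distal peaks were also compared within 5 groups of equal WT rank, a division chosen after the values were seen. The promoter peaks still moved lower. In the strongest WT group (ranks above 80), 4742 members moved by a median of -16.2 points at 1 week and -5.56 at 5 weeks, whereas 2425 distal peaks moved by -3.99 and -1.31. In the next group the shifts were -16.1 and -10.02 for members against -1.12 and -1.21 for distal peaks. In the weakest group 634 members rose by 10.7 and 5.34 points and 6533 distal peaks by 15.8 and 7.80. Members thus ended below distal peaks of like WT rank in these groups at both times.

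The fold over local background, which does not depend on the length of a list, gave the same order. Its median was 4.31 in WT, 3.40 after 1 week and 3.89 after 5 weeks among members, and 3.45, 3.24 and 3.37 among distal peaks. The median ratio to WT was 0.826 at 1 week and 0.908 at 5 weeks for members, against 0.931 and 0.954 for distal peaks, and 81.5% and 75.6% of the members had a lower fold. The -log10 q did not give that order. Its median was 12.2 in WT, 6.44 after 1 week and 14.7 after 5 weeks, so it was lower in 79.0% of members at 1 week but in 28.2% at 5 weeks, where the background was highest.

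Place within the whole list, which also holds the peaks that were not shared, gave the opposite sign. The median member stood at the 85.4 percentile of the WT list, the 87.7 percentile of the 1 week list and the 91.8 percentile of the 5 week list, a median shift of 2.32 and 5.76 points, against 21.5 and 22.3 points for distal peaks. With each Taf4 KO list reduced to as many peaks as the WT list, the median shift turned to -7.45 at 1 week and -3.63 at 5 weeks. The order of members by -log10 q was better kept between WT and 5 weeks (Spearman's rho 0.811 across 10645 peaks, which are not replicates) than between WT and 1 week (0.510). For distal peaks the values were 0.671 and 0.514.

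Promoter peaks were longer than distal ones in each list, and they narrowed at 1 week and widened slightly at 5 weeks. Median widths were 1037 bp in WT, 871 bp after 1 week and 1153 bp after 5 weeks, compared with 520, 533 and 697 bp for distal peaks. The median ratio of widths was 0.882 at 1 week, where 65.3% of members were narrower, and 1.06 at 5 weeks, where 34.5% were. Distal peaks had ratios of 1.00 and 1.199. A width at most 1/1.5 of WT was found at 1 week in 2981 members, or 28.0%, against 23.1% of all shared peaks, and at 5 weeks in 356, or 3.34%, against 5.31%. A width of at least 1.5 times WT was found in 961 members, or 9.03%, at 1 week against 18.6% of all shared peaks. At 5 weeks there were 1524 such members, or 14.3%, against 26.9%. The share of promoter peaks that widened was thus below that of all shared peaks in both lists, and at 5 weeks so was the share that narrowed.

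Splitting of a peak was rare. A single peak overlapped 10480 members at 1 week and 10572 at 5 weeks, and 165 and 73 members were overlapped by more than 1. The matched peak also reached another WT peak for 70 and 140 members. It met no promoter window itself for 248 members at 1 week (2.33%) and 44 at 5 weeks (0.413%), and without these the median shift of rank was -10.99 and -5.75 points. The median member had 84.3% of its length covered at 1 week and 98.4% at 5 weeks. The edge inside the gene drew back most, by a median of -54 bp at 1 week, and the upstream edge by -35 bp, whereas at 5 weeks the edges lay 25 and 17 bp further out. In WT the median peak reached 425 bp upstream and 571 bp downstream from the nearest start, at 1 week 360 and 473 bp, and at 5 weeks 451 and 632 bp. The start itself was covered in 95.1% of members in WT, 89.7% after 1 week and 96.9% after 5 weeks.

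**Figure D2:**
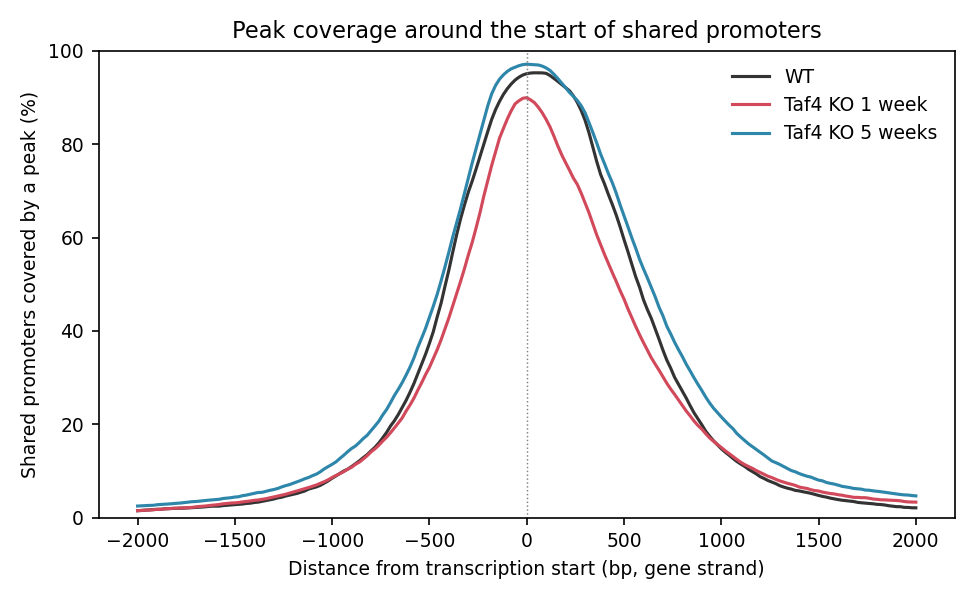
Percent of shared promoters covered by a peak (vertical axis) at each distance from the nearest transcription start in bp along the gene's strand (horizontal axis), 1 line per list. The 1 week line is lowest over the start and up to 960 bp inside the gene: at 400 bp downstream a peak covers 71.5% of the promoters in WT, 56.4% after 1 week and 75.8% after 5 weeks.

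The coverage around the start was lopsided towards the gene body in every list. At 400 bp upstream 53.1% of the promoters were covered in WT, 42.8% after 1 week and 56.9% after 5 weeks, against 71.5%, 56.4% and 75.8% at 400 bp downstream. From 980 bp downstream of the start the 1 week line lay above that of WT, at 5.75% against 4.80% at 1500 bp and 3.36% against 2.14% at 2000 bp.

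The strongest member with a named gene was M6pr, also the most constant of the top 20% of WT members. It encodes a mannose 6-phosphate receptor that carries enzymes to lysosomes (chr6:122258489-122259149). Its -log10 q was 52.6 in WT, 47.7 after 1 week and 52.7 after 5 weeks, and its width 661, 689 and 740 bp. Its rank, as defined above, was 99.98, 99.97 and 99.96. Only the predicted gene Gm10800 had a higher value in WT, with a -log10 q of 96.9 against 56.5 and 58.9 in the Taf4 KO lists. No filter for regions prone to artefact signal was applied here, so such signal at Gm10800 or other members was not checked.

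Next to M6pr in WT came Sp1, a transcription factor that binds GC boxes, Atp5g1, a subunit of the mitochondrial ATP synthase, Parp2, a DNA repair enzyme, Tsga10 and the histone variant gene H2afv, with a -log10 q of 49.8, 47.8, 46.9, 44.8 and 44.6. Their values at 1 week were 25.5, 9.79, 24.4, 11.6 and 11.96, and at 5 weeks 38.9, 47.5, 46.6, 33.9 and 36.6. These were picked for their high WT values, which leaves more room below than above. All 5 were lower at 1 week than in WT, and Atp5g1 and Parp2 were back near their WT value at 5 weeks. Other promoters kept their place throughout. Ensa, a regulator of protein phosphatase 2A, had 37.8, 30.5 and 44.9 in the same order of lists, Mdh1, cytosolic malate dehydrogenase, had 42.0, 35.8 and 51.0, and Ggct had 38.7, 30.7 and 46.3, and none of these 3 moved by more than a point in rank. Among the strongest at 1 week after M6pr were Evi5l (44.3), Copz1, a subunit of the COPI coat (38.6), Golph3l (38.5) and Pms1, a mismatch repair gene (38.2). Among the leaders at 5 weeks were Khsrp, an RNA-binding protein gene, at 55.8, Prkcsh, a subunit of glucosidase II, at 55.7, and Rrp9, a nucleolar protein gene, at 52.9.

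The widest WT members were mostly matched by narrower peaks. Ctdspl, a phosphatase gene, had the widest, of 4451 bp in WT, 1312 bp after 1 week and 1866 bp after 5 weeks. The peak of Junb, an AP-1 subunit, measured 4054, 746 and 1876 bp, and that of Mbnl2, a splicing regulator, 3829, 718 and 3743 bp. Sfi1 went from 3937 to 4337 and 1938 bp, Lzts2 from 3835 to 2442 and 3586 bp, and Cfl1, which encodes cofilin, from 3830 to 1518 and 3904 bp. Of these 6, 5 were narrower than in WT at 1 week (all but Sfi1) and 5 at 5 weeks (all but Cfl1). They were picked for their WT width, which leaves more room to narrow than to widen. The matched 1 week peaks of Ctdspl, Mbnl2 and Sfi1 and the 5 week peak of Ctdspl also lay outside the promoter windows, and the 1 week peak of Cfl1 met only that of its neighbour Mus81, so these widths are not of the same promoter peak. The peak matched to Ctdspl began 1864 bp inside the gene at 1 week and 1188 bp inside it at 5 weeks. The fold of the peak matched to Sfi1, 1.57 at 1 week and 1.48 at 5 weeks, was the lowest of all members at each time. Width showed no steady rise or fall with strength across members in WT (rho -0.018 over 10645 peaks). From the weakest to the strongest of 5 WT rank groups, the median WT width was 684, 975, 1154, 1148 and 997 bp. It was thus largest in the middle of the scale.

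The promoters that fell most at 1 week all stood higher again at 5 weeks, although a pick by the lowest 1 week ranks leaves little room to fall further. The -log10 q of Mark2, a polarity kinase, was 37.4 in WT, 2.06 after 1 week and 12.4 after 5 weeks. For Ythdf2, a reader of methylated RNA, it was 33.1, 1.97 and 24.1. For Rpl14, a protein of the large ribosomal subunit, it was 26.5, 2.06 and 23.3. The rank of Mark2 was 99.8, 6.98 and 57.6, that of Ythdf2 99.3, 6.12 and 90.8, and that of Rpl14 97.2, 6.92 and 89.7. The other 5 were Cdk11b, a kinase that acts on splicing, Ogfod2, Cdc27, a subunit of the anaphase-promoting complex, Rnf7, a ubiquitin ligase subunit, and Riok1, an atypical kinase of ribosome maturation. They stood at ranks between 95.9 and 98.9 in WT, 2.32 and 8.28 at 1 week, and 57.1 and 93.4 at 5 weeks. The 1 week peaks of these 8 genes were all narrower than in WT.

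The largest rises at 1 week began at WT ranks below those of most members. Cfi, complement factor I, had a -log10 q of 3.41 in WT, 18.3 after 1 week and 10.3 after 5 weeks. Gc, the vitamin D-binding protein found in alpha cells, had 2.29, 14.8 and 16.5. Aldh1a1, a retinaldehyde dehydrogenase, had 4.86, 21.0 and 21.9. The others were Ext1, an enzyme of heparan sulfate synthesis, Glrb, a glycine receptor subunit, Pde11a, a phosphodiesterase, Gabrg1, a GABA-A receptor subunit, and the RNA-binding protein gene Rbm47. The 8 WT ranks ran from 4.38 for Ext1 to 44.9 for Pde11a, and the 8 ranks at 1 week from 83.5 for Rbm47 to 97.7 for Aldh1a1. The 1 Mb around these genes was 37.1% to 43.9% GC, against 43.3% to 48.3% around the 8 that fell most, and the part of that difference in the result was not tested.

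At 5 weeks the largest rises were those of Cacna1g, a T-type calcium channel subunit (-log10 q of 3.86 in WT, 4.61 after 1 week and 26.2 after 5 weeks), Ccdc33 (1.74, 9.28 and 21.5), Clybl, a mitochondrial lyase (7.002, 12.4 and 30.5), and Rbm47 (2.23, 11.3 and 19.8). Triobp, Dlgap5, S100a4 and Ext1 completed the 8, and the 5 week peak of S100a4 lay inside the gene, from 530 bp after its start. Among the 8 largest falls were those of Akr1c12, an aldo-keto reductase (27.7, 6.13 and 7.88), Hnrnpul1 (27.0, 5.999 and 10.5) and Zc3h3 (24.2, 1.87 and 9.97). Pou2f1, an octamer-binding factor gene, Tnrc6a, a protein of microRNA silencing, Mark2 and Xpo5, the exporter of precursor microRNAs, were also among them. All 8 that fell most at 5 weeks were also lower than WT at 1 week, and all 8 that rose most were also higher there. Both times were compared with the same WT peak, so this does not count as a repeat.

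Beta cell genes did not stand out by strength. A shared promoter peak was found for 33 of 39 autosomal beta cell genes (84.6%), against 51.8% of all autosomal protein-coding genes. Foxa1, Slc2a2 and Abcc8 had a WT promoter peak that was not overlapped in both Taf4 KO lists. Nkx2-2, Kcnj11 and Trpm5 had no WT promoter peak. The median rank of the 33 was 62.4 in WT, 62.6 after 1 week and 59.2 after 5 weeks, below the 76.7 of all members in WT and above their 56.9 at 1 week. The median of their own shifts was nonetheless -10.8 points at 1 week and -8.03 at 5 weeks, near the -11.2 and -5.73 of all members. At 1 week 14 of the 33 fell by 20 points, against 37.9% of all members, and 2 rose, against 7.74%. At 5 weeks 11 fell, against 19.2% of all members, and 2 rose, against 4.57%.

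Ins1, which encodes insulin 1 (chr19:52338363-52339221), had the strongest promoter peak of the list in WT. Its -log10 q was 25.3 in WT, 13.0 after 1 week and 40.001 after 5 weeks, its rank 96.6, 88.4 and 99.4, and its width 859, 1779 and 1918 bp. Ins2, the other insulin gene, had a broad and weaker peak, with a -log10 q of 5.49, 3.29 and 8.59 and a width of 3390, 1145 and 3642 bp. The 1 week peak that overlapped it by the most bases lay 1471 to 2615 bp inside the gene, outside the promoter window, and another 1 week peak at the promoter had a -log10 q of 3.05 and a width of 495 bp. Iapp, islet amyloid polypeptide, rose in rank from 54.0 to 86.2 and 83.8. Ins1 was thus lower in rank at 1 week, whereas Iapp was higher at both times.

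Among the factors that set beta cell identity, Pdx1 had a -log10 q of 10.3, 10.3 and 9.77 while its peak went from 1374 bp to 327 bp and then to 4292 bp. Nkx6-1 had 8.42, 6.86 and 17.9, with widths of 2974, 909 and 1076 bp. Mafa, an activator of insulin transcription, had 7.12, 6.20 and 24.4, with widths of 1681, 604 and 777 bp. Neurod1, a basic helix-loop-helix factor, had 5.83, 4.16 and 12.8, and Pax6, a paired-box factor, 19.9, 11.7 and 25.1. The peaks of Pdx1, Nkx6-1, Mafa and Pax6 were all narrower at 1 week, and that of Neurod1 was not. Mafa rose from a rank of 55.7 to 91.2 at 5 weeks and Pdx1 fell from 70.2 to 44.0, so their ranks moved in opposite directions. The Mafa peak was narrower at 5 weeks than in WT and the Pdx1 peak wider. Because -log10 q is an average over the peak, these rank changes cannot be told apart from the changes of width.

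Of the other endocrine genes, 8 of 10 alpha cell genes had a shared promoter peak (51.8% of all genes did), without Gcg and Loxl4. So did 3 of 10 delta, PP and epsilon cell genes, namely Casr, Rbp4 and Ghsr, without Sst, Hhex, Cckbr, Lepr, Ppy, Pyy and Ghrl. The genes without one had no WT promoter peak either. The alpha cell peaks had a median rank of 45.6, 34.8 and 44.6, below all members in each list. Dpp4, a surface peptidase, stood at 70.7, 90.4 and 66.3, with a 1 week peak that began just inside the gene, beyond the promoter window. Tm4sf4 and Ppp1r1a stood at 51.0 and 50.7 in WT and at 22.8 and 27.6 at 1 week. Gc and Ttr stood at 12.1 and 40.4 in WT and at 91.9 and 65.45 at 1 week. Alpha cell genes thus moved in both directions at 1 week. Of the 8, 2 were higher and 2 lower by 20 points, against 7.74% and 37.9% of all members.

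Except for duct genes, few genes of other cell types had a shared promoter peak, against 51.8% of all autosomal protein-coding genes. Of 18 acinar genes, 1 had such a peak (Bhlha15, a secretory cell factor), and of 18 immune genes 0 did. Shared peaks were also found at 2 of 15 endothelial genes (Esam and Kdr), 2 of 12 stellate and fibroblast genes (Pdgfra and Rgs5), and 3 of 24 genes that islet cells do not use (Actn3, Mbp and Myh7). Of these 3 the strong peak of Actn3 lay between it and Zdhhc24. Duct genes, with 6 of 12, stood near the 51.8% of all genes. Among the 6 were Krt7, Muc1, whose peak lay nearer to the start of Mtx1, and Krt8. At 1 week Krt7 stood at a rank of 69.5, Muc1 at 45.7 and Krt8 at 85.1.

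Promoters of the transcription machinery ranked high in WT and were lower at 1 week. A shared peak was found at 14 of 15 TFIID genes, all but Taf9, whose WT promoter peak was not shared. Their median rank was 81.6, 63.4 and 79.2. Of these, 8 fell by 20 points at 1 week and 5 at 5 weeks, against 37.9% and 19.2% of all members. The shares were 45.2% and 29.5% among members of the next to strongest WT rank group. They were 44.4% and 16.1% in the strongest, so the share depends on the WT rank. Taf7, which stood at 96.3, 32.7 and 82.9, and Taf8, at 94.5, 62.6 and 84.2, were lower at 1 week, as was Taf15, at 95.02, 76.5 and 83.0. The TFIID peaks were also the narrowest at 1 week of the machinery groups, with a median width of 908 bp in WT, 492 bp after 1 week and 736 bp after 5 weeks.

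All 29 RNA polymerase II and general factor genes had a WT promoter peak, and 19 (65.5%) had a shared one. Over all WT promoter peaks 85.1% were shared. The 19 had a median rank of 86.0, 56.6 and 72.3. Of the 19, 11 fell by 20 points at 1 week, again against 37.9% of all members. Gtf2e1, a TFIIE subunit that shares its promoter with Rabl3, kept 97.6, 93.1 and 93.6, and Gtf2b, which encodes TFIIB, 93.2, 82.4 and 87.6. Ercc3, a helicase of TFIIH, had 93.9, 74.3 and 80.3, and Polr2i, which shares its promoter with Tbcb, 91.1, 81.8 and 60.4. Mediator genes, whose complex links factors to the polymerase, had a WT promoter peak in all 29. A shared peak was found in 22 of them, at 88.7, 46.7 and 81.5. Within them Med23 held 99.4 in each list and Med19, next to Tmx2, 98.6, 99.4 and 98.5, while Med11 went from 99.7 to 58.9 and back to 99.1. Remodeller genes of NuRF, Chd and SWI/SNF had a shared peak in 17 of 21, at 80.7, 42.3 and 65.4. Bptf, Smarcd1 and Smarce1 had a WT promoter peak that was not shared, and Chd8 had none in WT. Part of this list follows genes that the study itself brought up. Smarcc1, a core SWI/SNF subunit, fell from 96.4 to 13.1 and stood at 67.7 at 5 weeks, Smarca4, the Brg1 ATPase, had 91.8, 42.3 and 74.7, and Chd7 stayed at 96.1, 97.9 and 94.96. No machinery gene in these 4 groups rose by 20 points at 1 week, against 7.74% of all members. A peak above a rank of 80 in WT has no room for such a rise, and the median WT rank of each group was above 80. Each group also held members that kept their rank.

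**Figure D3:**
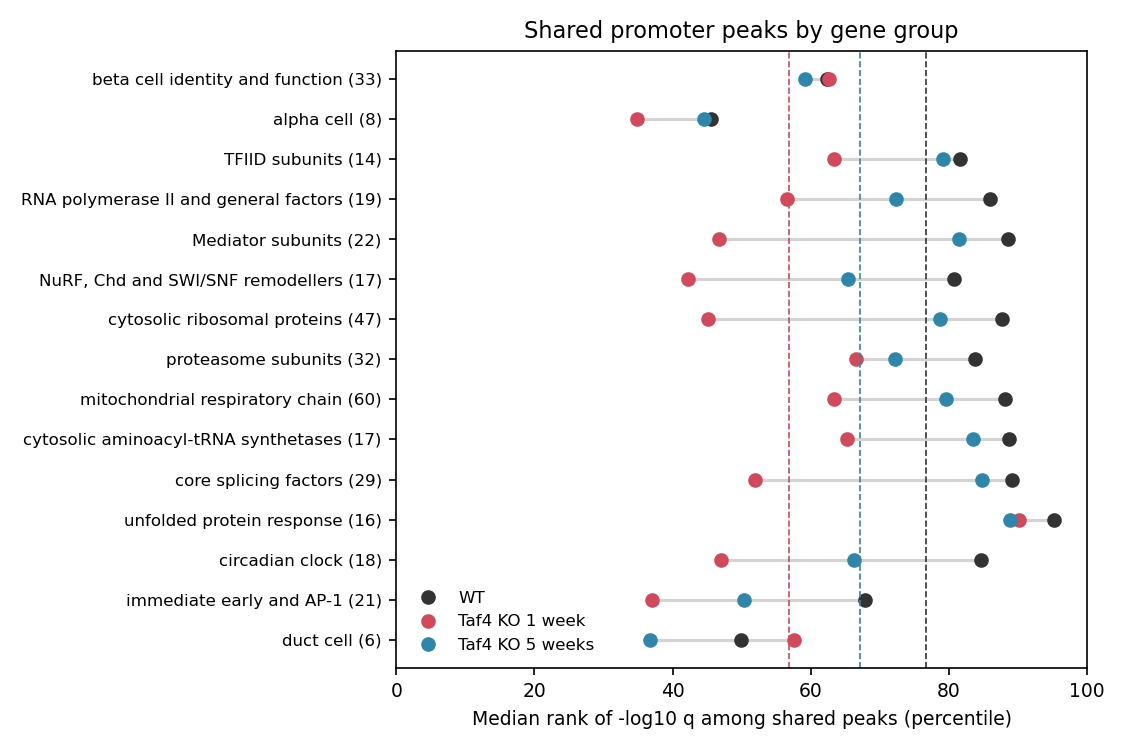
Median rank of -log10 q among shared peaks (percentile, horizontal axis) for the shared promoter peaks of gene groups (number of peaks in brackets), 1 point per list. Dashed lines are the medians of all 10645 members. Groups of 3 or fewer peaks are not drawn. Ribosomal, Mediator, remodeller, circadian clock and splicing genes lie furthest left at 1 week relative to WT, whereas unfolded protein response genes stay at 95.2, 90.2 and 88.9.

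Housekeeping promoters showed the same shape. All 74 autosomal genes of cytosolic ribosomal proteins had a WT promoter peak, and 47 of them (63.5%) had a shared one. Over all WT promoter peaks 85.1% were shared. The 47 had a median rank of 87.8, 45.1 and 78.7, which leaves out the promoters not called in both Taf4 KO lists. Of the 47, 32 fell by 20 points at 1 week and 12 at 5 weeks, against 37.9% and 19.2% of all members. None rose by as much at either time. Rps19 had a -log10 q of 42.7, 10.1 and 45.1, Rpl27 32.7, 6.74 and 37.0, Rpl37 35.2, 24.8 and 31.3 and Rpl30 29.1, 16.2 and 26.3. All 4 were lower at 1 week than in either other list. Splicing factor genes (29 of 35, all 35 with a WT promoter peak) stood at 89.2, 51.9 and 84.8. Of the 29, 21 fell by 20 points at 1 week, against 37.9% of all members. Among them were Snrnp70, a U1 protein (97.8, 54.4 and 73.1), and Sf3b2, a U2 protein (98.4, 51.9 and 94.3). U2af1 and Snrpe stood at 76.5 and 85.0 at 1 week.

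Respiratory chain genes (60 of 73, of which 72 had a WT promoter peak) stood at 88.2, 63.4 and 79.6. At 1 week 33 of the 60 were lower by 20 points, against 37.9% of all members. Atp5g1, Cycs and Cox8a, all above 99 in WT, lay between 72.9 and 77.6 at 1 week. Proteasome genes (32 of 41, of which 40 had a WT promoter peak) stood at 83.8, 66.6 and 72.3. All 32 were lower at 1 week, against 70.4% of all members. Of them Psmd8, Psmd4 and Psma5 were above 95 again at 5 weeks, whereas Psma2, whose promoter serves another gene too, stood at 66.9. Cytosolic aminoacyl-tRNA synthetase genes (17 of 20) stood at 88.8, 65.3 and 83.6, with Eprs at 16.1 and Lars at 98.95 at 1 week and Aars and Tars between them. These groups moved further than the median member at 1 week, but they also began higher. In the strongest WT rank group as a whole, 44.4% of members fell by 20 points at 1 week. The median GC of the surrounding 1 Mb was 45.6% for ribosomal, 46.3% for splicing, 45.3% for respiratory chain, 44.6% for proteasome and 44.5% for synthetase genes, against 44.5% for all members, and its part in these shifts was not tested.

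Promoters of the unfolded protein response, by which secretory cells adjust to protein load in the endoplasmic reticulum, stood high in each list. A shared peak was found at 16 of 17 genes, all but Atf6, whose WT promoter peak was not shared. Their median rank was 95.2, 90.2 and 88.9, and 3 of the 16 fell by 20 points at 1 week, against 37.9% of all members. The median GC of their surroundings was 46.2%, and no difference from the other groups was tested. Pdia4, a disulfide isomerase, had a -log10 q of 33.9, 24.996 and 49.1, Sel1l, a component of ER-associated degradation, 32.5, 28.0 and 40.7, and Dnajc3, a co-chaperone, 32.6, 21.3 and 31.5. Canx, which encodes the chaperone calnexin, had 37.1, 11.8 and 28.7. Canx was the lowest of these 4 at 1 week.

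Circadian clock genes had a shared peak in 18 of 19, with wide peaks (median 1842 bp in WT) at ranks of 84.7, 47.0 and 66.3. Of the 18, 11 fell by 20 points at 1 week, against 37.9% of all members. Per1 went from 95.7 to 24.8 and 87.7, Nr1d2, a repressor of the clock, from 96.1 to 83.5 and 92.5, Clock from 91.5 to 71.7 and 66.7, and Arntl, the partner of Clock, from 92.8 to 92.1 and 79.4. Immediate early and AP-1 genes had a shared peak in 21 of 23, at 67.9, 37.0 and 50.4. All 21 were lower in rank at 1 week, against 70.4% of all members. For 3 of them (Fosb, Ier2 and Nr4a3) the matched peak lay outside the promoter windows. Jund went from 85.4 to 23.1 and 61.2 and shared its peak with another gene, while Klf6, Nr4a2 and Egr2 stood at 83.997, 72.6 and 65.7 at 1 week.

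The rank at 1 week followed the base composition of the surrounding chromosome, and the rank at 5 weeks did not. The members were put in 5 equal groups of 2129 by GC content within a 1 Mb stretch centred on each peak. Their WT rank hardly differed between groups, at 75.4 for the AT-rich end and 77.6 for the GC-rich end. At 1 week the median rank went down from 73.0 through 62.7, 55.7 and 48.7 to 41.5, and at 5 weeks it was 66.2 and 68.6 at the ends. The median shift from WT at 1 week was 0.02, -7.91, -12.2, -18.2 and -26.1 points, and the share that fell by 20 points went from 15.8% to 56.8%. The shift at 5 weeks was -4.38 at the AT-rich end and -5.67 at the GC-rich end.

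Counted by rank among the 10645 members alone, the median shift of the most GC-rich group minus that of the least GC-rich group was -23.3 points at 1 week and -0.64 points at 5 weeks. Distal peaks divided at the same GC values showed a gradient of the same direction at 1 week, with median shifts from 14.2 to -4.98 points. Within the strongest WT group, the shift at 1 week went from -4.02 to -31.5 points for members and from 1.17 to -17.0 for distal peaks, so members were lower than distal peaks at each end. Base composition was thus related to rank in the 1 week library at promoters and elsewhere. The part of library preparation or sequencing in this was not tested.

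**Figure D4:**
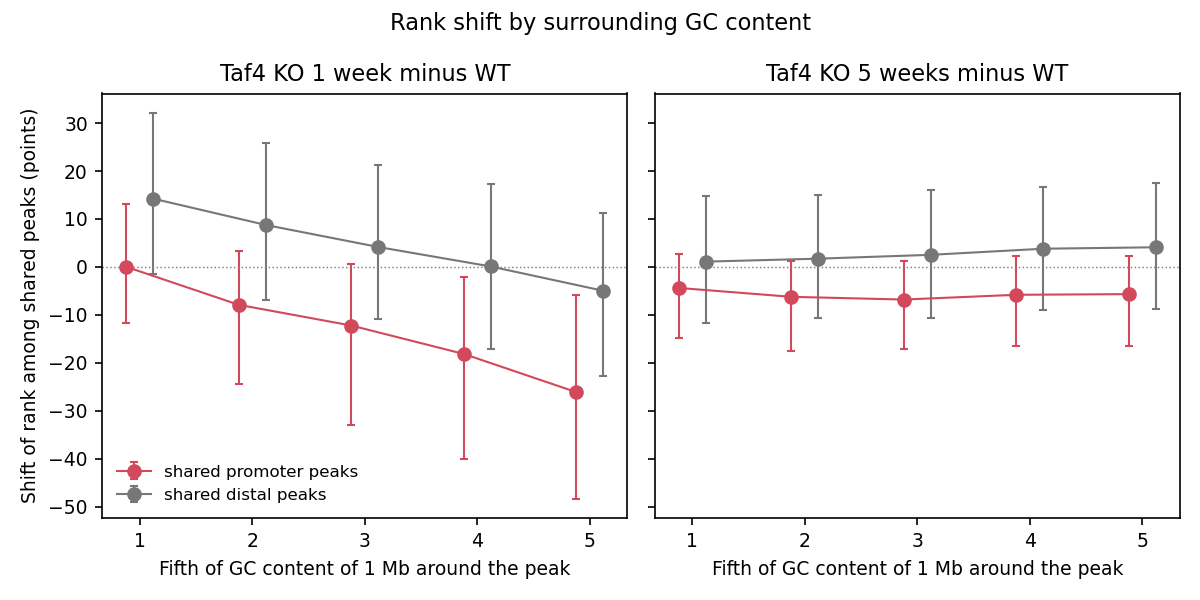
Shift of rank among shared peaks relative to WT (points, vertical axis) by 5 groups of the GC content of the surrounding 1 Mb (1 least, 5 most GC-rich), at 1 week and 5 weeks. Points are medians and bars the 25th to 75th percentiles; the promoter medians go from 0.02 to -26.1 points at 1 week and from -4.38 to -5.67 at 5 weeks.

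Width followed the same gradient, whereas fold did not. The median width ratio at 1 week was 1.08, 0.970, 0.883, 0.753 and 0.649 from the least to the most GC-rich group, and at 5 weeks 1.08 and 1.05 at the ends. The median fold ratio at 1 week was 0.827 at the AT-rich and 0.821 at the GC-rich end, so the lower fold of promoters at 1 week was of like size at both ends. At 5 weeks the fold ratio went the other way, from 0.872 to 0.959. By chromosome, the median shift at 1 week ranged from -4.92 points on chromosome 3 and -5.07 on chromosome 1 to -22.1 on chromosome 19 and -23.5 on chromosome 11, and at 5 weeks from -4.65 on chromosome 2 to -8.22 on chromosome 18.

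The CpG content of the promoter itself added a second gradient, at both times. In the 300 bp around the peak centre the members had a median of 65.7% GC and 25 CG pairs and an observed to expected CpG ratio of 0.80, and 76.0% had a ratio of at least 0.6. Distal peaks had 49.0% GC, 4 CG pairs and a ratio of 0.248, with 7.30% at 0.6 or more. All 43969 autosomal protein-coding starts had 58.0% GC and a ratio of 0.586. The 1865 WT promoter peaks that were not shared had 61.0% GC and a ratio of 0.676, and their surroundings were more GC-rich than those of members, at 47.3% against 44.5%. Shared promoters were thus the most CpG-rich of these sets.

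From the lowest to the highest of 5 groups by CpG ratio, the WT rank rose from 56.1 to 84.1, the shift at 1 week went from -1.13 to -17.96 points and that at 5 weeks from -2.08 to -8.83. The fold ratio fell as well, from 0.911 to 0.785 at 1 week and from 0.942 to 0.892 at 5 weeks. The gradients by surroundings and by CpG ratio were separate. In the least GC-rich surroundings the shift at 1 week was 8.52 points for the lowest and -5.57 for the highest CpG group, and in the most GC-rich surroundings -13.6 and -32.2. At 5 weeks the same 4 corners were at -1.26, -7.71, -1.47 and -8.00, so the corners differed there by CpG ratio and hardly by surroundings.

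Promoters with genes on both strands, of which there were 1042, were stronger in WT (median rank 86.8 against 75.4 at promoters of 1 gene) and shifted by -20.6 points at 1 week and -7.79 at 5 weeks, compared with -10.3 and -5.47. Their fold ratio at 1 week was 0.781 against 0.831.

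The GC box and the letters of ETS factors, Nrf1, YY1 and YY2 and CTCF were more frequent among members than at distal peaks. The letters were searched on both strands of the 300 bp around each peak centre, and in 300 bp from 200 bp upstream to 100 bp downstream of all starts. The GC box GGGCGG was found in 60.3% of members, 45.2% of all starts and 9.996% of distal peaks. The ETS letters CCGGAAG were found in 12.4%, 11.0% and 2.23%, Nrf1 (CGCATGCG) in 2.02%, 2.17% and 0.278%, and YY1 and YY2 (AAGATGGCG) in 2.39%, 2.16% and 0.155%. The CTCF letters AGGGGGC were found in 12.3%, 12.2% and 4.93%. The GC box was the set whose share among members lay furthest above that at all starts. Windows of members are centred on peaks and not on starts, and these letters go with GC content itself.

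A further 7 sets of letters had the reverse order, lowest among members and highest at distal peaks. The E-box CATCTG, as bound by Neurod1, was found in 10.6% of members, 14.8% of all starts and 31.0% of distal peaks, and the homeodomain letters TAATTA in 1.40%, 3.64% and 9.49%. The forkhead letters TGTTTAC were found in 1.83%, 2.77% and 9.95%, AP-1 (TGACTCA) in 2.71%, 4.09% and 8.94%, HNF1 (TTAATNATT) in 0.385%, 1.00% and 2.67%, Rfx (GTTGCCATG) in 0.489%, 0.596% and 0.937%, and TATAAA in 3.26%, 10.1% and 11.1%. The last 4 sets were most frequent at all starts. CCAAT was found in 25.9%, 34.1% and 30.4%, the E-box CACGTG in 7.13%, 7.40% and 5.62%, CRE (TGACGTCA) in 1.67%, 2.08% and 0.564%, and ZNF143 (ACTACAA) in 2.36%, 3.26% and 2.41%. The AT-rich letters are scarce in GC-rich sequence of any kind.

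**Figure D5:**
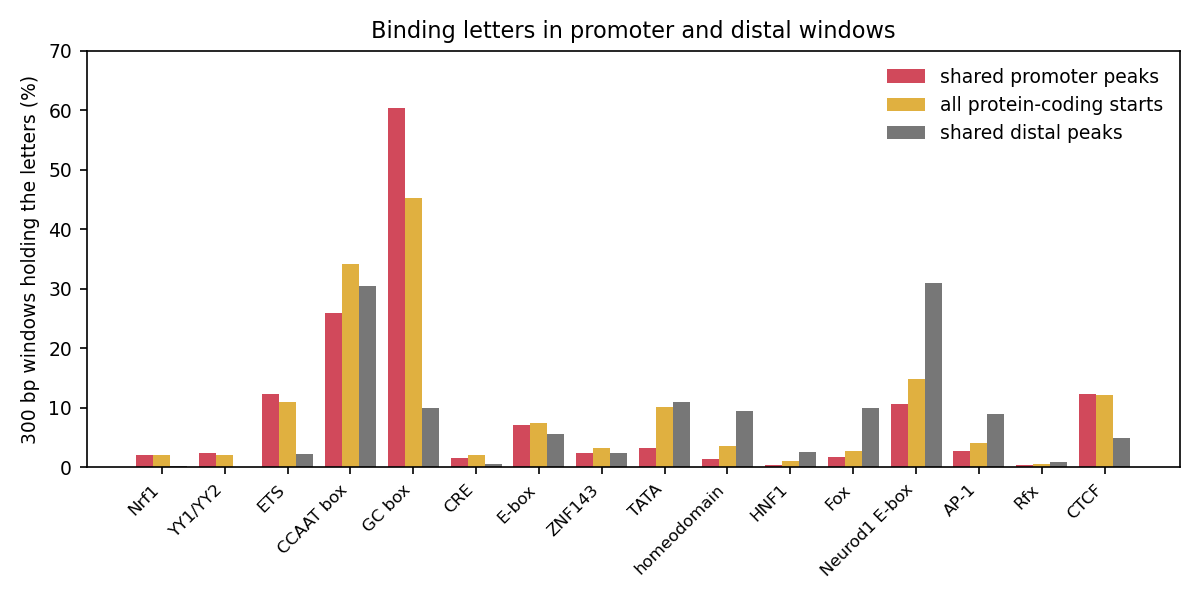
Percent of 300 bp windows (vertical axis) that hold each set of letters on either strand, for shared promoter peaks, all protein-coding starts and shared distal peaks. The GC box stands at 60.3% of promoters against 9.996% of distal peaks, and the Neurod1 E-box at 10.6% against 31.0%.

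Members with some of these letters moved differently from the rest. The 254 members with the YY1 and YY2 letters, such as Fnbp4 above, shifted by a median of -29.2 points at 1 week and -7.86 at 5 weeks, and those without them by -10.9 and -5.68. The 215 with the Nrf1 letters, such as Cherp, shifted by -27.8 and -12.2 points against -10.95 and -5.59. The 1315 with the ETS letters shifted by -20.4 and -5.85 against -10.1 and -5.71. Nrf1 was thus the set with the largest shift at 5 weeks of the 16 searched, and 32.1% of its members fell by 20 points there against 18.9% of the others. Members with the letters also began higher, at WT ranks of 85.7 for YY1 and YY2, 88.1 for Nrf1 and 87.2 for ETS. They had a higher CpG ratio, of 0.880, 0.926 and 0.853 in that order against 0.798, 0.797 and 0.791 in the members without them, whose part was not tested.

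Smaller shifts were seen with the ZNF143 letters, at -8.05 and -2.20 points for 251 members, and with CCAAT, at -7.60 and -2.47 points for 2758, although both began at high WT ranks of 85.1 and 82.0. M6pr, shown above with 3 copies of the ZNF143 letters, is the strongest of the former. The 149 members with the homeodomain letters shifted by -2.86 and -2.44 points from a WT rank of 67.2, and the 41 with the HNF1 letters by -0.15 and -2.14 from 65.1, and these promoters had the lowest CpG ratios of the 16 sets, of 0.511 and 0.405.

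The 8 printed promoters ranged over these patterns. Cherp, a regulator of calcium release, had a -log10 q of 37.3 in WT, 5.89 after 1 week and 21.3 after 5 weeks. Fnbp4 had 36.2, 12.6 and 28.5, Ppme1, a phosphatase methylesterase, 42.3, 13.4 and 40.4, Snrnp40, a splicing protein gene, 32.2, 14.3 and 32.7, and Golga5, a Golgi protein gene, 38.0, 17.0 and 35.3. These 5 were all at their lowest at 1 week, with the largest fall at Cherp, and Cherp and Fnbp4 were also lower at 5 weeks than in WT by more than the other 3.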

How the data were processed

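ATAC-seq peaks of islet cells were analysed from 3 deposited lists, 1 library per group, with groups taken from the genotype and time labels. By the study's methods and the submitters' processing notes, the authors mapped reads to mm9 with Bowtie 1.0.0, keeping those with a single place, and called broad peaks per library with MACS2 2.1.1. Shifting of reads, duplicate removal and pooling of animals for ATAC-seq were not given in the sources used here. The deposited columns hold, per peak, the fold over local background as a ratio and the -log10 p and -log10 q, averaged over the peak. The whole-number score, a multiple of the -log10 q, was not used. Read totals are not part of these lists. The background floor (1st percentile) was therefore solved from fold and p, which assumes the same read extension in each library.

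Peaks on chromosomes 1 to 19 were intersected with GENCODE starts on NCBIM37 (mm9). A WT peak was matched to the Taf4 KO peak that overlapped it by the most bases. Width, fold and -log10 q were compared per matched peak with Python 3.11, pandas 2.3.3, numpy 2.4.6, scipy 1.17.1 and statsmodels 0.14.6. Intervals are Wilson 95% intervals for the counting of peaks. The matching was checked on simulated lists. GC content was taken over 1 Mb centred on the peak and over the central 300 bp.

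The members, 21 gene lists and 16 sets of letters were chosen with earlier results of these data known. A peak was named by the gene whose start was nearest its centre. By rule the text names up to 8 beta cell genes in list order and up to 4 of each other list by WT -log10 q, the 6 strongest per list, the 6 widest in WT, the 8 that rose and the 8 that fell most per time in rank among members, the 4 most constant strong ones, those nearest the thresholds, and the peak covering most genes. Symbols such as Gm or Rik genes were passed over in ranked picks, and other names were chosen after their values were seen. A few genes that the rule names are not reported here. No sequence is printed for Ins2, whose upstream stretch overlaps an annotated exon. Alternatives were a reciprocal overlap of 50%, a window of 500 bp to each side, a -log10 q of at least 3 or 5, lists of equal number, matching by the highest -log10 q, and summed peak lengths. Another, chosen after seeing the data, kept the members whose matched peaks also met a promoter window.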

Additional observations from a re-analysis of the deposited data

Results flagged for a closer look

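The median width of shared promoter peaks moved in opposite directions relative to WT, with a ratio of 0.882 at 1 week and 1.06 at 5 weeks. The difference between these times was not tested, since each time had 1 library.

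Peaks on the sex chromosomes were not used in the report. The 1 week list held 12225 peaks on chromosome X and the 5 week list 1451, against 1272 in WT, which were 8.13%, 0.956% and 2.09% of each list. On chromosome Y the 5 week list held 44 peaks and the other lists 0.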

How the results depend on the processing

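No group was replicated, so no library could be left out in turn, and no paired analysis was possible because no label ties a library of 1 group to a library of another. Of 70 values recomputed under the alternatives, 43 stayed within the interval or range of the value reported, 21 moved out of it in the same direction, and 6 turned direction. The number of shared promoter peaks was 6289 at a -log10 q of 5 or more, and between 7980 and 10766 otherwise. The share of WT promoter peaks that were shared was 78.8% at a -log10 q of at least 3, 64.1% at 5, 78.1% in lists of equal number and 63.8% with a reciprocal overlap of 50%. It was 83.05% when the matched peaks also had to meet a promoter window, a setting chosen after seeing the data that left 10389 peaks and moved no other value.

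With a -log10 q minimum of 3 and of 5, in lists of equal number and with the reciprocal overlap, the median width ratio at 1 week was 0.903, 0.927, 0.897 and 0.928. At 5 weeks it was 1.05 at a -log10 q of at least 3 (1.052), at 5 (1.049) and with the reciprocal overlap (1.053). The median fold ratio at 1 week was 0.835 in lists of equal number and with a -log10 q of 3 or more, and 0.849 with 5 or more. At 5 weeks it was 0.912 in lists of equal number.

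The median shift of percentile in the whole list was not stable. At 1 week it turned to -5.75 at a -log10 q of at least 3, -9.66 at 5 and -7.45 in lists of equal number. At 5 weeks it turned to -3.63 in lists of equal number, and was 3.23 and 4.26 without peaks below a -log10 q of 3 and 5, and 5.01 with the reciprocal overlap. The difference in rank shift between the most and least GC-rich surroundings at 1 week was -18.8 at a -log10 q of 5 or more and -23.4 to -21.9 otherwise. At 5 weeks it lay near 0 throughout and turned to 0.32 and 0.48 when peaks below a -log10 q of 3 or 5 were left out. The cause of these changes was not tested.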
